A study of Bos taurus with 8 samples.

Results

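Interleukin receptors are surface proteins that bind interleukins, the soluble messengers of leukocytes, and most of them work as assemblies of a ligand-specific chain and a chain shared with other receptors. Receptors of the hematopoietin type, such as those built on the common gamma chain or on gp130, signal through Janus kinases and STAT transcription factors, whereas receptors of the IL-1 and IL-17 families recruit adaptor proteins such as MYD88 or TRAF3IP2. Which chains a blood leukocyte carries sets which interleukins it can answer, and lipopolysaccharide (LPS), the outer membrane component of Gram-negative bacteria sensed through TLR4 and CD14, is known to change several of them.

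The genes described here were the rows of the scRNA-seq tables whose name starts with IL, a number and R, with IL1RN, the secreted IL-1 receptor antagonist, left out and IL6ST (gp130) added. This rule found 40 genes of 21861 listed. IL36RN fits the letters of the rule but is an antagonist and not a receptor, and it had no UMI (unique molecular identifier, a tag counting single captured molecules). Over the 4 libraries 30 genes had at least 20 UMIs and 24 had at least 200, while IL1RAPL2, IL13RA2, IL1RAPL1, IL22RA1, IL1RL2, IL36RN and IL31RA had 0. IL20RA had 3 UMIs, IL17RE 2 and IL17RD 2. IL3RA and IL15RA were not analysed here. All 40 symbols matched the RefSeq gene table of assembly ARS-UCD2.0, where IL1R2, IL1R1, IL1RL2, IL1RL1, IL18R1 and IL18RAP lie next to each other in that order, IL12RB2 lies beside IL23R, and IL4R beside IL21R.

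Blood of 4 Chinese Holstein cows, lactating and 2 years old, was pooled and split into 4 aliquots, 1 without LPS and 3 kept as whole blood at 37 °C with 2 µg/ml LPS, for 2 h, 4 h and 8 h respectively. Peripheral blood mononuclear cells (PBMCs) of each aliquot gave 1 scRNA-seq library, which counts transcripts per cell, and 1 scATAC-seq library, which counts transposase cuts in open chromatin per nucleus. No incubation time was stated for the aliquot without LPS, so LPS and time in incubation cannot be told apart. All comparisons with no LPS share that 1 library. With 1 library per treatment, differences between treatments have no replicate check and no test, and the intervals below (95%, exact) cover counting error only.

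The kept cells numbered 7821, 9865, 7387 and 3411 (no LPS, 2 h, 4 h, 8 h), with 16657841 to 47875879 UMIs per library, and 2 libraries shared at most 0.363% of the barcodes of the smaller library. Cell classes were gated on transcripts of CD14, CSF3R, CD4, CD8B, WC1 (a γδ T cell co-receptor), MS4A1 (CD20) or NCR1 (NKp46), and are called by the gate gene. The gates took 54.6% to 59.4% of the cells. The CD14 cells numbered 752 without LPS and 331, 132 and 79 at 2 h, 4 h and 8 h, and the 79 had a median of 3564 UMIs against 9671 to 12458 in the other libraries. With no upper limit on genes they numbered 876, 385, 159 and 110, with medians of 11634, 13905, 12671 and 15096.5 UMIs. At 8 h the limit of 3000 genes kept 659067 of their 1715971 UMIs. The part of this limit in the 8 h values within CD14 cells below was not tested. The CSF3R cells were few and shallow (11 to 56 cells, medians of 1095 to 2130 UMIs). Markers not used in the gates had summed levels in CPM (UMIs scaled to a common total per library or class) of 1070 to 1400 for 6 B cell genes in MS4A1 cells, 1310 to 1460 for 7 T cell genes in CD4 cells and 1520 to 3250 for 7 monocyte genes in CD14 cells, where SERPINA1 was at 0. The CD14 cells also held 5220 to 10800 CPM of the neutrophil list, in which FPR1 was not listed, and 1500 to 3030 of a list of CD8A, GZMK and CCL5, whose part in the values of CD14 cells below was not tested.

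Over all kept cells, LPS libraries differed from the no LPS library mainly by higher IL2RA, IL21R, IL12RB2 and IL17RB and by lower IL1R2, IL1R1, IL13RA1 and IL1RAP. At 2 h, 4 of 28 receptor genes with enough UMIs (at least 20 over both libraries) were past 1.5-fold higher, against 5.45% of all genes, and 5 were past 1.5-fold lower, against 11.8%. At 4 h the counts were 4 higher (8.15% of all genes) and 7 lower (14.5%) of 28. At 8 h they were 5 higher (10.8%) and 5 lower (9.86%) of 27. The median log2 ratio of the receptor genes was 0.04, -0.01 and 0.07 in the 3 libraries, beside -0.04, 0.03 and 0.13 for all genes.

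**Figure D1:**
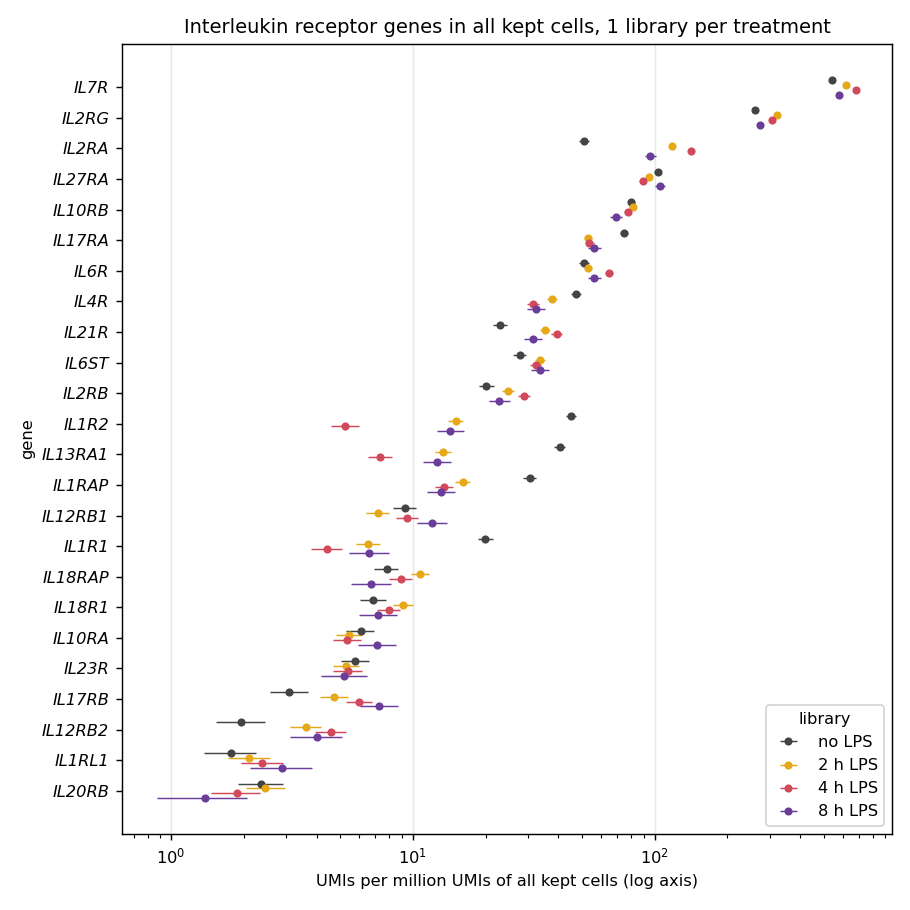
Level (CPM over all kept cells, log axis) of the 24 interleukin receptor genes with at least 200 UMIs, 1 point per library (no LPS, 2 h, 4 h, 8 h) with the 95% Poisson interval. Points are to be read within a gene: IL2RA moved from 51.0 to 142 and IL1R2 from 45.1 to 5.25 between no LPS and 4 h, while IL10RB stayed between 69.2 and 81.1.

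Among the receptors built on the common gamma chain, IL2RA, the alpha chain that turns the IL-2 receptor into its high-affinity form, was at 51.0 CPM in the no LPS library and at 118, 142 and 96.0 in the 2 h, 4 h and 8 h libraries. All 3 LPS libraries lay above the no LPS library, with ratios of 2.31 (2.19 to 2.43), 2.79 (2.65 to 2.94) and 1.88 (1.76 to 2.01). IL2RG, the common gamma chain itself, was at 261, 320, 306 and 272, in the same order (no LPS, 2 h, 4 h, 8 h), which is the order of all such values below. IL2RB, the chain shared by the IL-2 and IL-15 receptors, was at 20.1, 24.8, 28.8 and 22.8. Neither passed 1.5-fold at any time. IL7R, the specific chain of the IL-7 receptor on naive and memory T cells, was at 544, 619, 682 and 581, and no ratio exceeded 1.25. IL21R, the specific chain for IL-21 of follicular helper T cells, was at 22.9, 35.3, 39.3 and 31.5, which gave ratios of 1.54 (1.42 to 1.67), 1.71 (1.58 to 1.86) and 1.37 (1.23 to 1.53), the last not past 1.5-fold. IL9R, the specific chain for IL-9, had 54 UMIs in all and between 0.300 and 0.498 CPM per library.

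Time was also followed within the gated classes, where fewer receptor genes had enough UMIs. In CD14 cells 3 of 21 were higher (7.69% of all genes) and 4 lower (48.8%) at 2 h, then 4 (15.2%) and 3 (25.6%) of 19, then 7 (19.9%) and 1 (14.4%) of 19 in the 4 h and 8 h libraries. In CD4 cells 4 (4.26%) and 1 (6.06%) of 20 passed at 2 h, then 6 (6.19%) and 0 (7.52%) of 21, then 3 (7.45%) and 4 (5.0%) of 20. The CD8B cells had 2 (6.66%) and 2 (6.7%) of 16, then 3 (7.16%) and 0 (6.07%) of 16, then 1 (10.3%) and 4 (7.77%) of 15.

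In WC1 cells 3 (10.4%) and 1 (10.8%) of 11 passed at 2 h, then 3 (13.6%) and 2 (12.6%), then 3 (12.1%) and 1 (7.62%). There IL2RB and IL2RA were higher and IL12RB1 lower each time, IL12RB1 at 18.8, 5.53, 8.7 and 8.06 CPM on 20, 6, 9 and 5 UMIs. In MS4A1 cells 4 (8.0%) and 4 (16.9%) of 20 passed at 2 h, then 4 (9.08%) and 5 (19.4%) of 20, then 7 (10.5%) and 0 (7.79%) of 19, with IL1RAP, IL12RB2, IL2RA and IL21R higher each time. The NCR1 cells had 1 (13.2%) and 1 (11.6%) of 11, then 3 (12.1%) and 1 (11.8%) of 14, then 1 (13.5%) and 3 (12.4%) of 10, with IL2RA higher and IL18R1 lower each time. In CSF3R cells 0 (23.8%) and 2 (46.1%) of 5 passed at 2 h, then 0 (31.8%) and 2 (35.4%) of 6, then 1 (18%) and 1 (38.6%) of 3.

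In every gated lymphoid class IL2RA was higher in the 2 h and 4 h libraries than in the no LPS library. In WC1 cells it was at 282, 551, 519 and 474 CPM. In CD4 cells it was at 60.2, 120, 167 and 99.7. In NCR1 cells it was at 93.7, 223, 185 and 217. The 3 LPS values lay above the no LPS value in each of these classes. In MS4A1 cells IL2RA was at 11.9, 56.1, 68.3 and 39.4, the largest ratios of the 5 lymphoid classes at each time, with 4.70 (3.84 to 5.84), 5.72 (4.69 to 7.11) and 3.30 (2.59 to 4.25). In CD8B cells it was at 17.0, 33.5, 26.5 and 18.1, and the 8 h value did not pass 1.5-fold. In CD14 cells IL2RA was at 5.73, 17.1, 39.3 and 10.6 CPM, with ratios of 2.97 (1.99 to 4.52), 6.84 (4.45 to 10.6) and 1.96 (0.702 to 4.17), the last on 7 UMIs. In CSF3R cells IL2RA was at 264, 223, 127 and 35.0 CPM on 9, 25, 15 and 1 UMIs, with a lower call at 4 h (0.469, 0.196 to 1.24) whose interval includes 1. The summed T cell list in the CD14 cells was at 27.7 to 65.2 CPM, with all 7 genes present, and its part in this result was not tested. Differences between classes in the size of these ratios were not tested.

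Shares of cells with an IL2RA UMI were taken after thinning each cell to 2000 UMIs and leaving out shallower cells. In MS4A1 cells the share was 1.80% (1.23 to 2.55) of 1719 cells, 7.60% (6.59 to 8.71) of 2499, 10.0% (8.76 to 11.5) of 1981 and 7.0% (5.17 to 9.23) of 657, and the unthinned shares were 3.79%, 15%, 23.3% and 14.3%. In WC1 cells it was 40.9% (34.8 to 47.3), 63.3% (56.9 to 69.4), 55.0% (47.6 to 62.3) and 50.5% (40.8 to 60.1), against unthinned shares of 61.0%, 79.3%, 78.8% and 86.1%. In CD8B cells of the same libraries it was 1.79% (0.778 to 3.5), 3.44% (2.12 to 5.27), 2.37% (1.19 to 4.19) and 2.42% (0.789 to 5.55), the lowest shares of the T cell gates, and unthinned 5.66%, 7.10%, 6.79% and 4.68%. The median depth was 4540 to 5583 UMIs in CD8B cells and 3918 to 5205 in MS4A1 cells. The no LPS share of MS4A1 cells was at the level of the CD8B cells, and whether either share is background was not tested. The 2 h and 4 h shares of MS4A1 cells lay above the CD8B interval, and at 8 h the intervals overlapped. In CD14 cells the thinned share was 1.79%, 4.24%, 8.82% and 2.04% (0.0517 to 10.9), the last on 1 of 49 cells. Leaving out shallower cells removed 154, 124, 62 and 197 MS4A1 cells and 10, 11, 4 and 4 WC1 cells.

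IL21R was past 1.5-fold higher in MS4A1 cells at all 3 times, at 13.8, 45.4, 42.1 and 28.9 CPM, with ratios of 3.27 (2.70 to 4.02), 3.04 (2.50 to 3.74) and 2.09 (1.63 to 2.70). In CD4 cells it was at 56.7, 59.5, 66.2 and 59.2, and no time passed 1.5-fold. Its only other higher call was in CD14 cells at 8 h, on 9 UMIs. In CD8B cells it was at 24.0, 14.5, 16.8 and 16.5, with a ratio of 0.606 (0.398 to 0.913) at 2 h. The thinned share of MS4A1 cells with an IL21R UMI was 2.44% (1.77 to 3.29) without LPS, then 7.48% (6.48 to 8.59), 8.78% (7.57 to 10.1) and 4.87% (3.36 to 6.81), and the unthinned shares were 5.02%, 17.5%, 18.6% and 12.2%. In WC1 cells, where IL21R was low, thinned shares were between 0 and 3.70%, and the unthinned shares were 1.14%, 0.797%, 6.74% and 3.48%.

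In CD14 cells IL7R was at 416, 595, 839 and 821 CPM, with ratios of 2.02 (1.88 to 2.16) at 4 h and 1.97 (1.80 to 2.16) at 8 h. In CD4 cells IL7R was at 959, 1060, 1180 and 932, above the CD14 cells in every library. The 7 T cell genes summed to 27.7 to 65.2 CPM in the CD14 cells against 1310 to 1460 in the CD4 cells. After thinning, 34.6% (30.8 to 38.5) of 613 CD14 cells had an IL7R UMI in the no LPS library, then 42.8% (36.9 to 48.7), 37.3% (27.9 to 47.4) and 55.1% (40.2 to 69.3). Unthinned shares were 48.8%, 58.9%, 43.9% and 53.2%, and thinning left out 139, 48, 30 and 30 CD14 cells. The thinned share in MS4A1 cells, taken for comparison, was 5.12%, 6.24%, 6.97% and 12.9%, below the CD14 cells in every library, and their median depth was 3918 to 5205 UMIs.

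**Figure D2:**
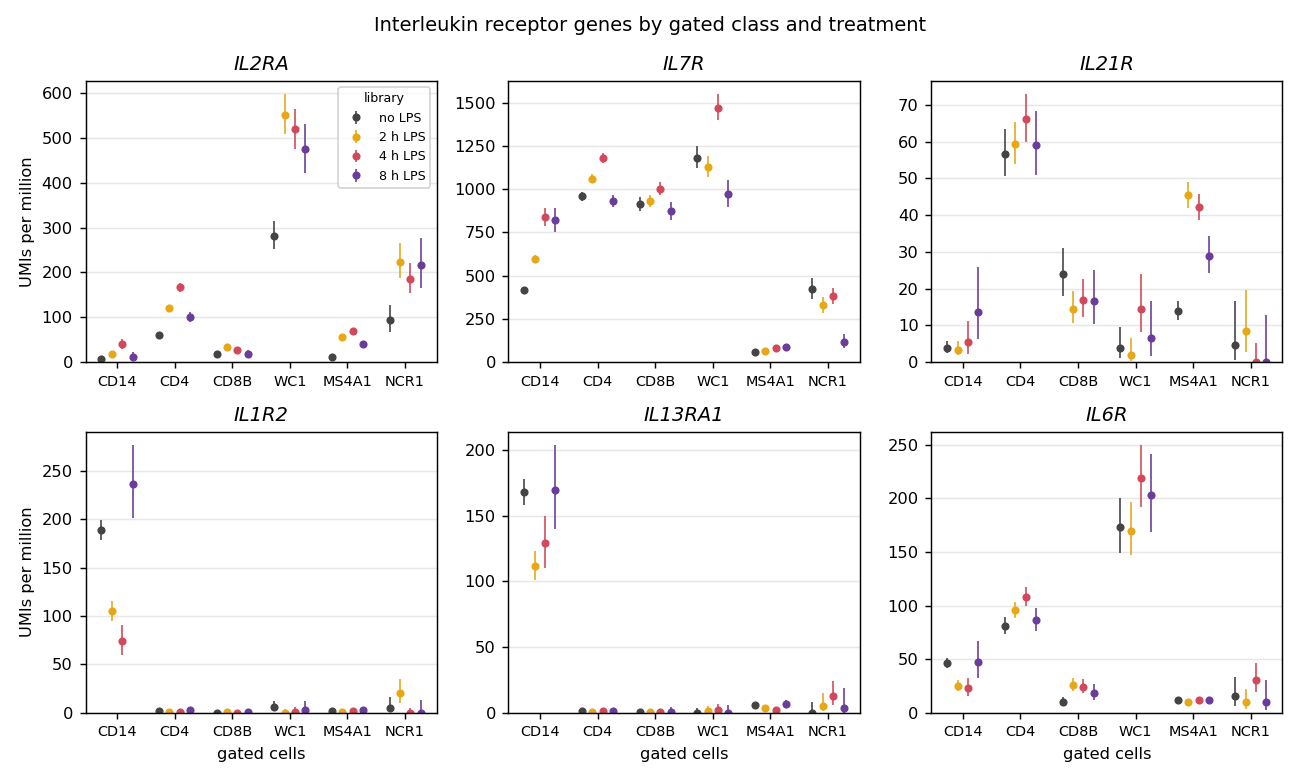
Level (CPM of the class) of IL2RA, IL7R, IL21R, IL1R2, IL13RA1 and IL6R in 6 gated classes, 1 point per library with the 95% Poisson interval. The 3 LPS points of IL2RA lie above the no LPS point in WC1, CD4, MS4A1 and NCR1 cells, IL21R is raised in MS4A1 cells, and IL1R2 and IL13RA1 are seen in CD14 cells, where IL1R2 was at 189, 105, 73.8 and 237.

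IL4R, the chain common to both IL-4 receptor types, and IL13RA1, its partner in the receptor that also binds IL-13, lay lower in the LPS libraries. IL4R was at 47.2, 37.6, 31.4 and 32.4 CPM and passed 1.5-fold at 4 h alone (ratio 0.665, 0.618 to 0.715). IL13RA1 was at 40.5, 13.3, 7.32 and 12.6, between 3.04-fold and 5.53-fold lower. Within CD14 cells IL4R was at 126, 125, 161 and 149 CPM, with no call. IL13RA1 was at 168, 112, 129 and 170 there and was called lower at 2 h (ratio 0.666, 0.595 to 0.744), as were 48.8% of all genes in these cells.

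In the IL-1 receptor family IL1R2, the decoy receptor that binds IL-1 without signalling, was at 45.1, 15.1, 5.25 and 14.3 CPM. IL1R1, the signalling receptor, was at 19.9, 6.56, 4.41 and 6.60. IL1RAP, the accessory chain that IL-1 and IL-33 receptors share, was at 30.4, 16.1, 13.4 and 13.1. Each of these genes was past 1.5-fold lower in all 3 LPS libraries, with IL1R2 8.57-fold lower at 4 h (ratio 0.117, 0.100 to 0.134).

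The CD14 cells numbered 752, 331, 132 and 79, and in sums over all cells fewer cells of a type and less RNA per cell cannot be told apart. They made up a larger share of the kept cells at 8 h (79 of 3411) than at 4 h (132 of 7387). The levels of IL1R2, IL1R1, IL13RA1 and IL4R over all cells were not lower at 8 h than at 4 h. The part of the cell share in these levels was not tested. Within the CD14 cells IL1R2 was at 189, 105, 73.8 and 237 CPM, IL1R1 at 85.2, 49.3, 63.6 and 98.6, and IL1RAP at 126, 110, 158 and 105. In them IL1R2 was lower at 2 h (ratio 0.558, 0.498 to 0.624) and 4 h (0.393, 0.314 to 0.483) and IL1R1 at 2 h (0.579, 0.488 to 0.681). Of all genes in CD14 cells, 48.8% were past 1.5-fold lower at 2 h and 25.6% at 4 h. The 8 h ratio of IL1R2 was 1.26 (1.06 to 1.48), not past 1.5-fold, in 79 cells of which 30 had fewer than 2000 UMIs. When the gated cells were given the class shares of the no LPS library, the log2 ratio at 4 h became 0.33 for IL1RAP and 0.28 for IL4R, and at 8 h it became 0.31 for IL1R2, 0.20 for IL1R1 and 0.02 for IL13RA1. The limit of 3000 genes per cell also touched these genes: with no upper limit the 8 h log2 ratio was -0.40 in place of -1.65 for IL1R2, -0.47 in place of -1.59 for IL1R1, -0.34 in place of -1.21 for IL1RAP and -0.91 in place of -1.68 for IL13RA1.

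IL18R1 and IL18RAP, the chains of the receptor for IL-18, did not pass 1.5-fold over all cells. IL18R1 was at 6.86, 9.11, 7.97 and 7.20 CPM and IL18RAP at 7.79, 10.7, 8.91 and 6.72. By class, IL18R1 was called lower in NCR1 cells at each time, in MS4A1 cells at 4 h and in CD8B cells at 8 h. In CD14 cells it was called higher at 2 h. IL18RAP was called lower in CD4, CD8B and NCR1 cells at 8 h. Higher calls of IL18RAP were in CD4 cells at 2 h, CD14 cells at 4 h and MS4A1 cells at 8 h. IL1RL1, the receptor for IL-33, was at 1.77, 2.11, 2.39 and 2.88, past 1.5-fold at 8 h on 48 UMIs (ratio 1.64, 1.10 to 2.40). In CD4 cells, the 1 class with enough IL1RL1 UMIs, it was at 4.18, 4.20, 6.51 and 2.25 CPM on 23, 30, 41 and 7 UMIs. There it passed 1.5-fold upward at 4 h (1.54, 0.912 to 2.72) and downward at 8 h (0.565, 0.195 to 1.30), the opposite of its 8 h direction over all cells, and both intervals include 1.

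Of the gp130 family no well-counted chain passed 1.5-fold over all cells. IL6R, the ligand-binding chain for IL-6, was at 51.1, 53.0, 64.6 and 56.4 CPM, and IL6ST, the signalling chain gp130, at 27.7, 33.5, 32.2 and 33.6. IL27RA, which pairs with gp130 to bind IL-27, was at 103, 95.1, 89.3 and 105. Over all cells no ratio of these 3 genes was outside 0.866 to 1.26. IL11RA, the IL-11 binding chain, was past 1.5-fold at 8 h on 9 UMIs only (ratio 1.63, 0.604 to 4.05).

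By class IL6R moved in opposite directions. In CD8B cells it was at 10.0, 26.1, 24.3 and 18.1 CPM and was called higher each time, with an 8 h ratio of 1.80 (0.973 to 3.34). In CD14 cells it was at 46.1, 24.6, 22.8 and 47.0 and was called lower at 2 h and 4 h, as were 48.8% and 25.6% of all genes there. In CD4 cells it was at 81.3, 95.5, 108 and 86.5, with no call. IL27RA was lower at 4 h in WC1 cells (254, 184, 143 and 239) and in MS4A1 cells (58.1, 44.5, 34.6 and 49.1), and neither class passed 1.5-fold at 8 h.

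Of the IL-12 family, IL12RB2, the signalling chain of the IL-12 receptor, was at 1.95, 3.61, 4.58 and 4.02 CPM. The ratios were 1.85 (1.41 to 2.47), 2.34 (1.79 to 3.12) and 2.07 (1.46 to 2.91). IL12RB1, the chain shared by the IL-12 and IL-23 receptors, was at 9.25, 7.16, 9.49 and 12. IL23R, the specific chain for IL-23, was at 5.77, 5.31, 5.38 and 5.22. Neither passed 1.5-fold over all cells, while in WC1 cells IL12RB1 was called lower at each time. IL12RB2 was on few molecules in each class: in CD4 cells 4, 13, 24 and 10 UMIs, and in MS4A1 cells 23, 61, 62 and 19 UMIs (2.61, 4.42, 4.93 and 4.04 CPM).

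In the IL-17 receptor family, IL17RB, the receptor chain for IL-25, was at 3.09, 4.74, 6.0 and 7.26 CPM, with ratios of 1.53 (1.22 to 1.93), 1.94 (1.55 to 2.44) and 2.35 (1.81 to 3.05). In CD4 cells it was at 7.27, 11.5, 16.8 and 11.6, and in WC1 cells at 0, 2.76, 3.86 and 27.4, the last on 17 UMIs. IL17RA, the chain that the other IL-17 receptors pair with, was at 74.6, 53.0, 53.6 and 56.4, below its no LPS level in all 3 LPS libraries and never by 1.5-fold. IL17RC, its partner for IL-17A and IL-17F, had 42, 30, 24 and 20 UMIs and was past 1.5-fold lower at 2 h and 4 h, and IL17REL had 35, 34, 15 and 14.

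Among receptors of class II, IL10RB, shared by the IL-10 and IL-22 receptors, was at 80.1, 81.1, 77.4 and 69.2 CPM. IL10RA, the ligand-binding chain for IL-10, was at 6.08, 5.45, 5.35 and 7.14. Neither passed 1.5-fold. IL20RB, the chain shared by receptors for IL-20 and IL-24, had 91, 118, 75 and 23 UMIs and was 1.68-fold lower at 8 h. IL22RA2, the soluble IL-22 binding protein, had 28 UMIs in all, and IL5RA, the alpha chain of the eosinophil and basophil receptor for IL-5, had 26.

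The class contrasts were tested. Sums of UMIs over the cells of each class in each library entered the fit, and each class was set against the mean of the other 6 with the 4 libraries as a block (edgeR quasi-likelihood test, Benjamini-Hochberg adjustment over 8397 genes, adjusted p under 0.05). The 4 libraries are aliquots of 1 pool under different treatments, so the p-values measure the spread between these libraries and not between animals. Of the receptor genes, 22 could be tested. Alternative scalings moved the contrast of CD14 cells most: DESeq2 shifted the median gene by -0.80 (log2) and plain library totals by -0.95, against shifts of -0.06 to 0.30 in the other classes.

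CD14 cells were higher in chains of the IL-1 and type II IL-4 receptors. IL1R1, IL1RAP, IL1R2 and IL13RA1 were higher than in the other classes by 7.46 ± 0.26, 6.88 ± 0.21, 6.32 ± 0.23 and 6.28 ± 0.17 (log2 ± SE), with adjusted p between 3.93e-24 and 4.73e-20 by edgeR. In CD4 cells the same genes were at 1.61 to 3.33, 1.11 to 1.61, 0.476 to 2.90 and 0.840 to 1.64 CPM. IL4R (2.92 ± 0.10), IL17RA (2.43 ± 0.11), IL7R (1.86 ± 0.19) and IL10RB (1.30 ± 0.13) were also higher, and all 8 kept this call with both other scalings. Their sizes depended on the scaling. For IL7R the contrast of CD14 cells was 1.11 with DESeq2 and 0.95 with library totals, below the 1.62 and 1.71 of CD4 cells. By edgeR the IL7R contrast of CD4 cells was the smaller one, at 1.47. In all, 12 of 22 receptor genes were higher in CD14 cells (40.5% of all genes) and 4 lower (21.0%). With DESeq2 the split was 8 higher and 10 lower, beside 23.2% and 56.1% of all genes. With library totals it was 8 and 6, beside 21.0% and 42.6%. The calls of IL23R, IL10RA, IL6ST and IL6R were lost under both, and IL6R turned to -0.06 with DESeq2 and lost its call without the no LPS library (0.45). IL2RA (-1.76 ± 0.25) and IL27RA (-1.87 ± 0.23) were lower with each scaling, and so were IL18R1 and IL18RAP, which lost the call without the no LPS library (-0.84 and -0.63), IL18R1 also without the 4 h library (-1.11) and IL18RAP also without the CSF3R cells (-0.35).

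CSF3R cells shared the high IL1RAP (294, 187, 447 and 455 CPM), IL1R2 (529, 62.5, 143 and 70.0) and IL13RA1 with CD14 cells. They also gave the highest reading of IL2RG, at 969, 661, 751 and 700 against 112 to 469 in the other classes. In all 9 of 22 receptor genes were higher (10.4% of all genes) and 2 lower (29.3%), IL7R and IL27RA. These values rest on 2 to 89 UMIs per library for the genes just named as high.

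CD4 cells were higher in IL17RB (5.43 ± 0.67), IL21R (2.74 ± 0.27), IL6ST (1.77 ± 0.15), IL7R (1.47 ± 0.19), IL6R (1.17 ± 0.15), IL18R1 (1.14 ± 0.25) and IL27RA (0.89 ± 0.13), with edgeR adjusted p from 6.61e-11 to 0.000362. The 8th of these was IL12RB1 (1.68 ± 0.52, edgeR adjusted p = 0.00995), a call that was lost without the 4 h library (1.62) and without the CSF3R cells (0.39). Of 22 receptor genes, 8 were higher in CD4 cells (34.6% of all genes) and 6 lower (13.0%). IL6ST was at 53.8, 60.4, 58.9 and 52.8 CPM in CD4 cells, 49.7 to 64.8 in CD8B cells and 5.10 to 6.81 in MS4A1 cells. CD4 and CD8B cells did not overlap MS4A1 cells in any library.

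CD8B cells shared IL6ST (1.84 ± 0.16), IL7R (1.39 ± 0.19) and IL27RA (1.11 ± 0.14) and were lower in IL2RA (-2.20 ± 0.24), IL4R (-2.08 ± 0.16) and IL6R (-1.33 ± 0.20). In these cells 4 receptor genes were higher (37.0% of all genes) and 8 lower (15.9%). The call of IL12RB1, the other higher gene, was lost without the CSF3R cells (0.26) and without the no LPS, 2 h or 4 h library (1.46 to 1.57).

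WC1 cells carried the highest IL2RA of the lymphoid classes, 282 to 551 CPM, and the contrast was 2.74 ± 0.17 (edgeR adjusted p = 6.42e-14). IL6R was at 173, 170, 219 and 203 CPM in WC1 cells, above the 81.3 to 108 of the CD4 cells in every library, with a contrast of 2.41 ± 0.15 (edgeR adjusted p = 1.03e-13). IL7R (1.73 ± 0.19), IL27RA (1.58 ± 0.14) and IL2RG (0.36 ± 0.13) were higher too. IL18RAP (-2.16 ± 0.42) and IL13RA1 (-3.49 ± 0.65) were among the lower genes. Altogether 6 were higher (26.7% of all genes) and 4 lower (9.02%). The call of IL17RB in WC1 cells (4.28 ± 1.13) rested on 0, 3, 4 and 17 UMIs and was lost without the 8 h library (3.16). That of IL2RG was lost without the 8 h or the no LPS library (0.26 and 0.31).

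In MS4A1 cells most receptor genes were lower. Of 22 receptor genes 15 were lower, against 17.1% of all genes, and 1 was higher, against 38.5%. The median log2 difference of the receptor genes was -1.35, beside 0.31 for all genes. IL18RAP (-3.67 ± 0.29), IL18R1 (-3.27 ± 0.42), IL7R (-3.07 ± 0.26), IL6R (-2.47 ± 0.19) and IL6ST (-2.17 ± 0.32) were among them. The gene that was higher was IL21R (1.58 ± 0.31, edgeR adjusted p = 7.5e-05). With library totals the split was 3 higher and 13 lower, beside 55.3% and 11.6% of all genes.

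NCR1 cells were higher in chains for IL-2, IL-12 and IL-18. IL2RB was at 187, 222, 208 and 158 CPM in NCR1 cells, where no other class exceeded 38.4 in any library, and its contrast was 3.46 ± 0.21 (edgeR adjusted p = 4.49e-14). IL12RB2 (4.07 ± 0.46), IL18RAP (2.97 ± 0.25), IL12RB1 (2.52 ± 0.53) and IL18R1 (2.51 ± 0.35) were higher as well. The CSF3R cells had 0 UMIs of IL12RB1 and IL12RB2. Without them the contrasts were smaller, 1.24 for IL12RB1 and 3.07 for IL12RB2, and both kept the call. In NCR1 cells IL12RB1 rested on 5 to 13 UMIs per library and IL12RB2 on 3 to 18. IL18RAP was at 75.4, 70.5, 59.0 and 48.1 CPM. The count was 10 higher (20.2% of all genes) and 5 lower (6.93%), among the latter IL10RB, IL6R and IL6ST. IL7R in NCR1 cells was at 423, 329, 382 and 117, the last value on 34 UMIs from 42 cells.

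**Figure D3:**
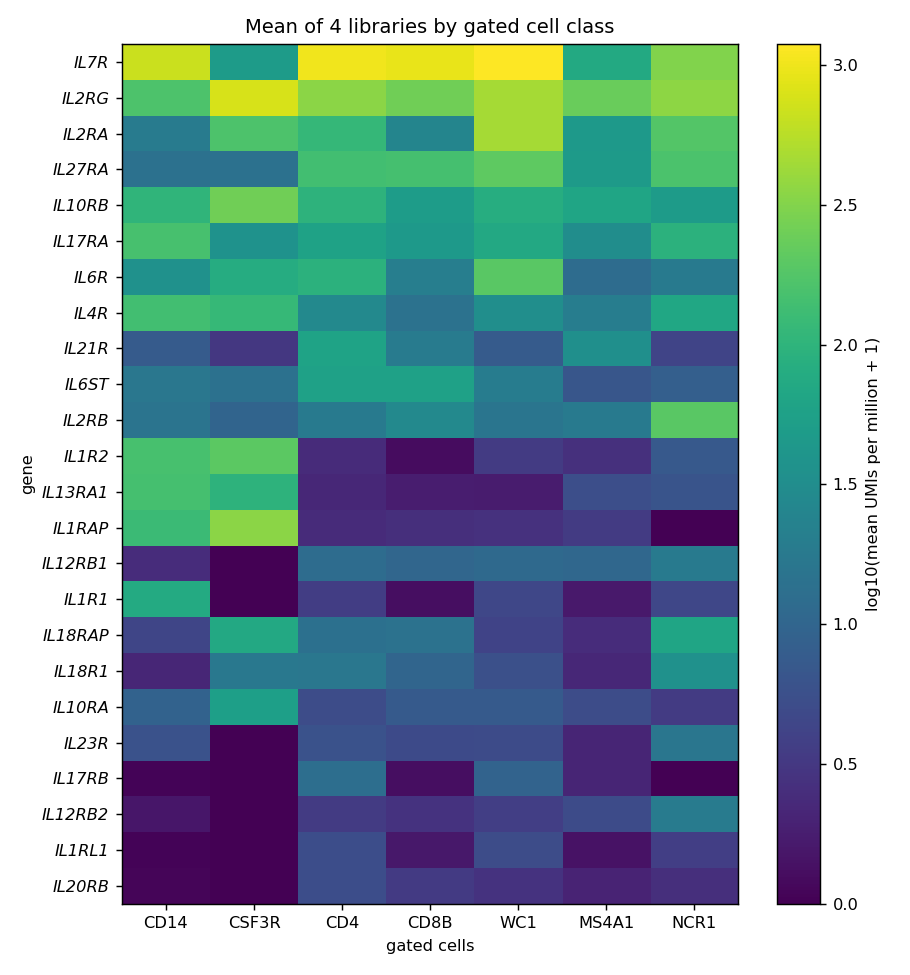
Color gives log10(mean CPM of the 4 libraries + 1) for the 24 interleukin receptor genes with at least 200 UMIs (rows) in the 7 gated classes (columns). IL1R1, IL1R2, IL1RAP and IL13RA1 are brighter in CD14 cells than in any lymphoid class, IL2RB, IL18R1 and IL18RAP are brighter in NCR1 cells than in the other lymphoid classes, and the CSF3R column rests on 11 to 56 cells per library.

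Genes that act downstream of these receptors were counted over all cells with the same 1.5-fold rule, to be read beside the shares of all genes given above. Of 11 Janus kinases and STATs, 1, 3 and 2 were higher in the 2 h, 4 h and 8 h libraries, and none was lower. STAT4, which carries the IL-12 signal, was at 50.1, 84.5, 92.4 and 74.4 CPM, and STAT5A, which carries the IL-2 and IL-7 signals, at 64.1, 90.5, 106 and 109. Of 8 feedback inhibitors 3, 2 and 3 were higher in these libraries. CISH, an inhibitor induced through STAT5, was at 23.6, 36.3, 46.6 and 41.7, and IRAK3, an inhibitor of IL-1 receptor signalling, at 12.3, 26.1, 23.7 and 16.2. None of the 5 IL-1 and IL-17 adaptors passed 1.5-fold.

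A list of interleukin genes held ligands of the receptors, the antagonist IL1RN, and IL16, which has no receptor among the genes described here. Of its 19 measured genes 12, IL1RN among them, were past 1.5-fold higher at 2 h (5.45% of all genes) and 1 was lower (11.8%). The median log2 ratio was 0.85. IL6 was at 268, 545, 75.8 and 73.7 CPM, IL1A at 48.6, 197, 58.7 and 48.0 and IL22 at 1.01, 17.3, 1.47 and 7.98. IL1RN, the antagonist that competes for IL1R1, was at 377, 1060, 831 and 527. The count for this list was 4 higher (8.15% of all genes) and 6 lower (14.5%) of 18 in the 4 h library. It was 5 (10.8%) and 5 (9.86%) of 17 in the 8 h library. IL2 itself was at 0.831, 0.501, 0.722 and 1.86 CPM, on 24 to 32 UMIs per library.

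In the class contrasts, 2 of the 11 kinases and STATs were higher in MS4A1 cells (STAT6 and STAT2) and 7 lower, among them JAK1, JAK3, STAT5A and STAT5B, beside 38.5% and 17.1% of all genes. The same counts came with DESeq2 (46.6% and 18.7% of all genes), and 2 and 5 with library totals (55.3% and 11.6%). In CD14 cells 5 were higher and 4 lower (40.5% and 21.0% of all genes), but 3 and 6 with DESeq2 (23.2% and 56.1%) and 2 and 6 with library totals (21.0% and 42.6%). All 5 adaptors were higher in CD14 cells by edgeR and 2 with each of the other scalings.

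Gene accessibility was given by the scATAC-seq tables, which list 25, 34, 31 and 26 of the 40 receptor genes in the no LPS, 2 h, 4 h and 8 h libraries. These libraries held 975012, 30250143, 26837579 and 11957904 counts, so the no LPS library was far shallower, with a median of 213 counts per barcode against 2250 to 5205. Between 88.7% and 93.8% of the values above 0 were even, and intervals were therefore set on counts divided by 2. IL1RAPL2, IL13RA2, IL1RAPL1, IL22RA1, IL1RL2 and IL36RN, which had no UMI, were in none of the 4 tables.

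Between the 2 h and 4 h libraries 0 of 31 receptor genes passed 1.5-fold (1.42% of all genes higher and 4.48% lower), with a median log2 ratio of -0.08 beside -0.002 for all genes. IL2RA was at 178 and 159 CPM at 2 h and 4 h, and IL21R at 213 and 199. Between 2 h and 8 h, 1 of 26 was higher (3.38% of all genes) and 6 were lower (14.4%). IL7R was at 53.0, 40.6 and 23.9 at 2 h, 4 h and 8 h (8 h against 2 h 0.452, 0.375 to 0.540), IL18RAP at 79.5, 65.7 and 41.1, and IL23R at 19.7, 19.2 and 2.51. IL1RL1, IL17RD and IL20RA were the other lower genes and IL17RE the higher one. The gated CD14 nuclei numbered 115, 72 and 0 in the same libraries, and the CD8B nuclei 37, 17 and 0. A gate of 1 count also took 0 of both at 8 h, where 11573 genes were listed against 13821 at 2 h. Missing nuclei and missing counts of the gate genes cannot be told apart at 8 h. The part of makeup in these differences was not tested.

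Against the no LPS library, 17 of 25 receptor genes were past 1.5-fold higher at 2 h (16.6% of all genes) and 2 lower (15.6%). The 4 h library had 16 (15%) and 2 (14%), the 8 h library 10 (9.56%) and 1 (15.2%). The median log2 ratios of 0.79, 0.76 and 0.36 lay above the -0.04 to -0.03 of all genes. IL2RA was at 53.3 CPM (34.8 to 78.1) on 52 counts without LPS, then 178, 159 and 144, and IL21R at 60.5 (41.5 to 87.8) on 59 counts, then 213, 199 and 148. IL10RB was at 250, 381, 355 and 315, and IL17RA at 103, 60.8, 68.4 and 73.3. All 3 comparisons share the 1 shallow no LPS library, and the part of its depth in these differences was not tested.

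Nuclei of the LPS libraries were gated on 2 or more counts at exactly 1 of the same genes. As most values were even, 2 counts can stand for 1 fragment. No marker check of the gated nuclei is reported here. How well the gates separate cell types was not tested, so a lack of calls does not show that classes were alike. Each class was set against the other fitted classes over 10756 genes and 26 receptor genes by edgeR. CSF3R was not listed and NCR1 nuclei were too few, so 5 classes were fitted. In MS4A1 nuclei 11 receptor genes were less accessible (10.7% of all genes) and 0 more (12.8%; 15 of 26 had an unadjusted p under 0.05, and DESeq2 called 8 lower and 0 higher). IL6R (-0.72 ± 0.09), IL7R (-0.74 ± 0.20), IL2RG (-0.77 ± 0.18), IL12RB1 (-0.99 ± 0.21) and IL9R (-1.25 ± 0.30) were among them. Without the 2 h library 3 receptor genes were called lower, and 9 without the 4 h library. The IL6R level in CPM of fragments was 189, 178 and 145 in MS4A1 nuclei at 2 h, 4 h and 8 h and 318, 280 and 242 in CD4 nuclei, with no overlap.

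In WC1 nuclei 3 receptor genes were more accessible (1.92% of all genes) and 0 less (0.576%), and DESeq2 gave the same counts. These were IL9R (1.26 ± 0.25, edgeR adjusted p = 9.65e-05), IL2RA (0.49 ± 0.12, edgeR adjusted p = 0.00525) and IL6R (0.48 ± 0.10, edgeR adjusted p = 0.00012). IL2RA and IL6R were higher in WC1 cells in the transcript contrasts too. IL9R had 39, 43 and 6 fragments in WC1 nuclei, and only 54 UMIs in all scRNA-seq libraries. Without the 4 h library none of the 3 remained a call, and without the 2 h library 1 gene was called. In CD14, CD4 and CD8B nuclei edgeR and DESeq2 called 0 receptor genes, while 4, 2 and 2 had an unadjusted p under 0.05 by edgeR and 1, 1 and 2 by DESeq2 (at most 0.465% of all genes were called in 1 direction). The CD14 nuclei (115 and 72) and CD8B nuclei (37 and 17) came from the 2 h and 4 h libraries only. Among the genes not tested were IL1R1, IL1R2, IL18R1 and IL17RB, which were not listed at 8 h.

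**Figure D4:**
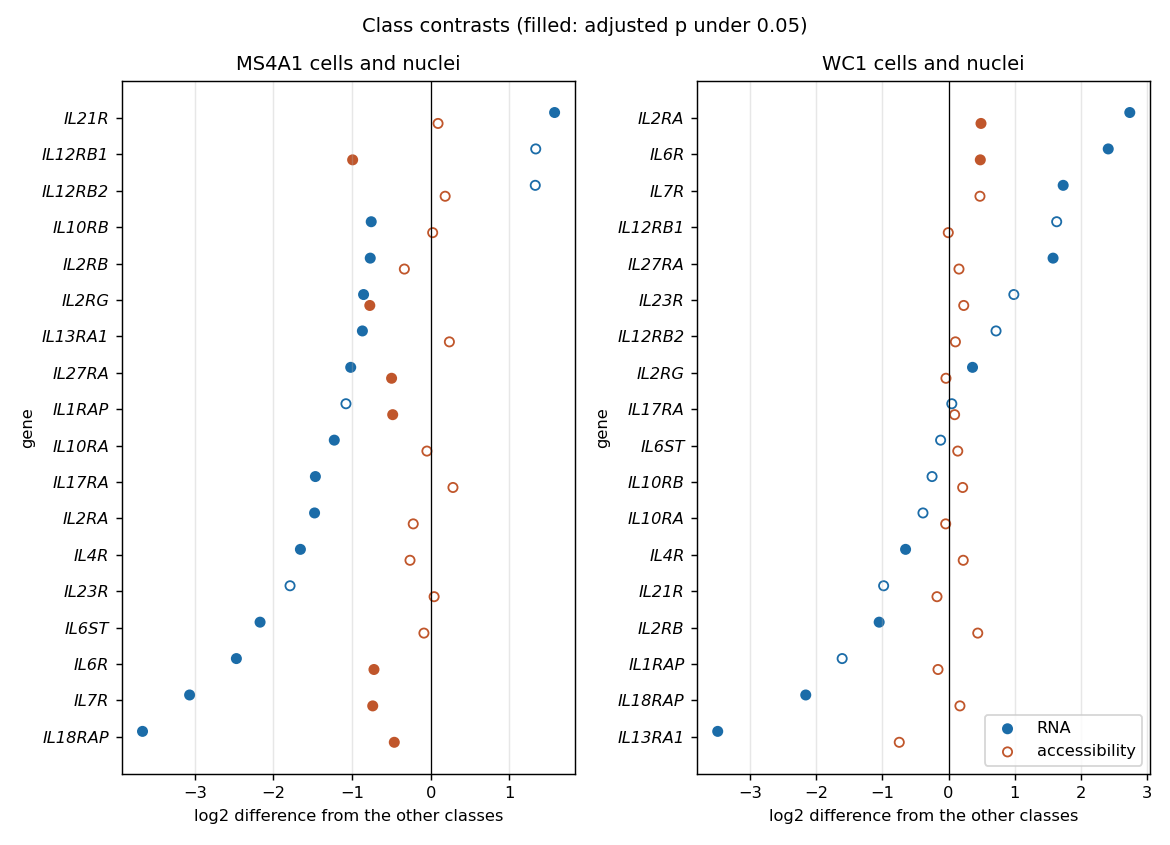
Log2 difference of MS4A1 and WC1 cells from the other classes for the 18 receptor genes tested in both assays, transcripts in blue and gene accessibility in orange, with filled points at an edgeR adjusted p under 0.05. The transcript contrasts are set against 6 other classes and the accessibility contrasts against 4, so the sizes are not on 1 footing: IL6R in MS4A1 is at -2.47 for transcripts and -0.72 for accessibility, and IL2RA in WC1 at 2.74 and 0.49.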

How the data were processed

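Per the labels and the study's methods, PBMC libraries were made with 10x Genomics chemistry and counted with Cell Ranger on ARS-UCD1.2. The authors deposited raw counts: UMI counts per gene and barcode for scRNA-seq and counts per gene and barcode for scATAC-seq, whose rule for assigning fragments to genes is not given in the sources used here. Kept cells had between 200 and 3000 genes, 200 or more UMIs, and a mitochondrial share below 20%. Doublets were not called and remain.

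CD14 cells had at least 2 CD14 UMIs and no lymphoid gate gene. CSF3R cells likewise had at least 2 CSF3R UMIs and no CD14 UMI. Lymphoid classes had at least 1 UMI of their gene, none of the other 4, and at most 1 of CD14 and of CSF3R. Treatments were compared as ratios of CPM (0.5 added to each sum, at least 20 summed counts, 1.5-fold), with exact binomial intervals. Class sums were tested with edgeR 4.0.16 (TMM), with DESeq2 1.42.0, other gates, limits and scalings as alternatives, in R 4.3.3, Python 3.11.15 and scipy 1.17.1. Only the edgeR contrast of MS4A1 cells was tried on simulated counts, with 100 genes changed by a log2 of 1 and 100 by 2. Of these 90% and 100% were recovered. The simulated classes did not differ otherwise, so the shifts between scalings and the time ratios were not covered. Accessibility was fitted on counts divided by 2 and rounded up, in classes with at least 10 nuclei in 2 or more LPS libraries, fewer classes than planned.

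Members, lists and alternatives were chosen with earlier results of these data known. Genes with at least 20 UMIs could be named, with class values from 200 UMIs, and signalling genes past 1.5-fold or leading a class contrast. The alternatives without CSF3R cells and with library totals were added after seeing the data. Sequences and coordinates are not reported here.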

Additional observations from a re-analysis of the deposited data

Results flagged for a closer look

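Some receptor genes passed 1.5-fold in opposite directions in 2 gated classes of the same libraries. These differences between classes were not tested, since each treatment has 1 library. The values are log2 ratios to no LPS.

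IL6R was at 1.36 in CD8B cells and -0.90 in CD14 cells at 2 h, and at 1.26 and -0.99 at 4 h. It rested on 23 UMIs in the CD8B cells without LPS and on 29 UMIs in the CD14 cells at 4 h. Of all genes, 48.8% and 25.6% were past 1.5-fold lower in CD14 cells at 2 h and 4 h. In CD8B cells 6.66% and 7.16% were past 1.5-fold higher.

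IL2RB was at 1.08 in CD4 cells and -0.77 in CD8B cells at 2 h. At 8 h it was at 1.80 in CD14 cells, on 18 UMIs, and at -1.82 in CD8B cells, on 14 UMIs.

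IL21R at 2 h was at 1.71 in MS4A1 cells and -0.72 in CD8B cells.

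IL7R at 8 h was at 0.98 in CD14 cells and 0.64 in MS4A1 cells and at -1.84 in NCR1 cells, of which 42 were gated.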

How the results depend on the processing

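With a 2-fold limit, 4, 7 and 6 receptor genes were past it at 2 h, 4 h and 8 h, in place of 9, 11 and 10, and 3 in place of 7 for accessibility at 8 h against 2 h. With no upper limit on genes, and with every deposited barcode, 5 receptor genes passed 1.5-fold at 8 h. The shares of all genes at these settings are not reported here, so these counts cannot be set against them. With the class shares of the no LPS library, log2 ratios turned to 0.334 for IL1RAP and 0.279 for IL4R at 4 h, and to 0.024 for IL13RA1, 0.313 for IL1R2 and 0.199 for IL1R1 at 8 h. A gate of 2 and 3 UMIs left 9 calls in CD4 cells in place of 14, and 5 in WC1 cells in place of 10, with fewer cells. In CD14 cells IL6R turned to -0.062 with DESeq2 (adjusted p = 0.796) and to -0.214 with library totals, which also put IL6ST at -0.091. Leaving out 1 library gave 14 to 17 calls in CD14 cells, 10 to 13 in CSF3R, 11 to 14 in CD4, 11 to 13 in CD8B, 8 to 9 in WC1, 14 to 16 in MS4A1 and 14 in NCR1 cells, and 4 to 16 for accessibility of gated nuclei in place of 14 (4 without 2 h, 9 without 4 h). Of all class contrasts of transcripts recomputed, 943 kept direction and call, 70 lost the call and 3 turned; of those of accessibility, 64 kept it and 20 lost it; of time ratios, 406 kept their value within counting error, 87 moved and 5 turned. The cause was not tested. No paired analysis was possible because, for comparisons between treatments, the labels carry no replicate numbers and each treatment has 1 library per assay; the class contrasts had the library as a block. Classes of few cells (CSF3R, NCR1) and genes under 20 UMIs are limited by depth.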
